A study of Homo sapiens with 12 samples.

Results

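The MAP kinase feedback genes described here are 10 transcripts that cells raise when ERK, the last kinase of the RAS, RAF, MEK and ERK cascade, is active: the dual-specificity phosphatases DUSP4, DUSP5 and DUSP6, the Sprouty genes SPRY1, SPRY2 and SPRY4, the Sprouty-related genes SPRED1 and SPRED2, and the ETS transcription factors ETV4 and ETV5. They were chosen by name, and each symbol matched 1 of the 63677 Ensembl IDs of the count table. All 10 were among the 26076 genes that passed the filter on low counts. The cells were LNCaP, a human prostate cancer line that responds to androgen, grown in hormone-proficient medium. The 12 libraries formed 4 groups of 3: USP22 overexpression, its pLPLUC vector control, shRNA-mediated USP22 depletion (shUSP22-4693) and its shRNA control. Both shRNA groups, the control included, were given 1 ug/mL doxycycline over 5 days, renewed every 48 hours; the labels give no treatment for the other groups, so the shRNA control and the vector control differ, as labelled, in construct and in doxycycline, and the effects of these cannot be told apart. The labels name a single shRNA against USP22 and leave unsaid whether replicates came from separate cultures or clones, so p-values cover only the spread among these samples, possibly technical.

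ERK signalling starts at growth factor receptors and ends in the nucleus, where it switches on immediate early and ETS-driven genes, among them its own brakes. DUSP proteins remove the activating phosphates from ERK and related kinases; Sprouty proteins interrupt the signal between receptor and RAF; SPRED proteins bring neurofibromin, a RAS inactivator, to the membrane; ETV4 and ETV5 are ETS factors of the PEA3 group that carry part of the transcriptional output. Their transcripts are commonly read together as a measure of ERK output. USP22 is the ubiquitin protease of the SAGA coactivator complex, which acts on histones and on other proteins.

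The libraries held 77607469 to 103690001 counted reads. USP22 followed the labels, at 1498, 1406 and 1495 CPM (read counts scaled to a common library size after TMM normalisation) in overexpression libraries against 481.6, 490.6 and 565.2 CPM in vector control libraries, and at 256.9, 265.3 and 250.6 CPM in depletion libraries against 479.6, 473.4 and 479.7 CPM in shRNA control libraries. Averages of single markers, here and below, are over the 12 libraries. All 10 luminal prostate markers averaged at least 1 CPM. Their summed levels were 4655 to 5172 CPM in depletion libraries against 6480 to 6683 CPM in shRNA control libraries, and 4792 to 4947 CPM in overexpression libraries against 5098 to 5443 CPM in vector control libraries. Of the markers of other cell types, the 8 of other epithelial lines summed to 8.33 to 9.15 CPM in depletion against 10.7 to 11.8 CPM in shRNA control libraries, and to 6.14 to 7.71 CPM in overexpression against 5.64 to 6.47 CPM in vector control libraries, with KRT17 at 0 and KRT14 and VIM alone averaging 1 CPM or more. The 6 of fibroblasts summed to 14.1 to 18.1 CPM in depletion against 17.3 to 18.3 CPM in shRNA control libraries, and to 10.9 to 12.7 CPM in overexpression against 10.2 to 13.8 CPM in vector control libraries. Over the 12 libraries COL1A1 and COL3A1 alone of these averaged 1 CPM or more. The 3 of endothelium, of which VWF alone averaged 1 CPM or more and PECAM1 was at 0, summed to 11.9 to 14.7 CPM in depletion against 6.63 to 7.69 CPM in shRNA control libraries, and to 9.5 to 10.8 CPM in overexpression against 9.51 to 13.4 CPM in vector control libraries. The 4 of leukocytes summed to at most 0.493 CPM in any library. Vector control replicate 3 stood apart: the SD of its log2 CPM about its mates' mean was 0.59, where replicates 1 and 2 had 0.46.

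On a scale of CPM per kb of exon, which allows levels of different genes to be compared, the 10 genes fell into a higher and a lower set. SPRED2 (3.5 CPM per kb over the 12 libraries), SPRY1 (3.47), DUSP4 (2.37), SPRED1 (2.17) and DUSP5 (1.07) made up the higher set. SPRY2 (0.391), SPRY4 (0.245), DUSP6 (0.172), ETV5 (0.151) and ETV4 (0.114) made up the lower set. The low genes rested on few reads: DUSP6 had 42 to 85 reads per library, ETV4 22 to 51, ETV5 23 to 152, SPRY2 72 to 169 and SPRY4 22 to 538. The choice of 1 CPM per kb as the line between the sets was made after the values were seen. DUSP5 was below this line in overexpression (0.904) and vector control libraries (0.892). It was above the line in depletion (1.15) and shRNA control libraries (1.35).

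**Figure D1:**
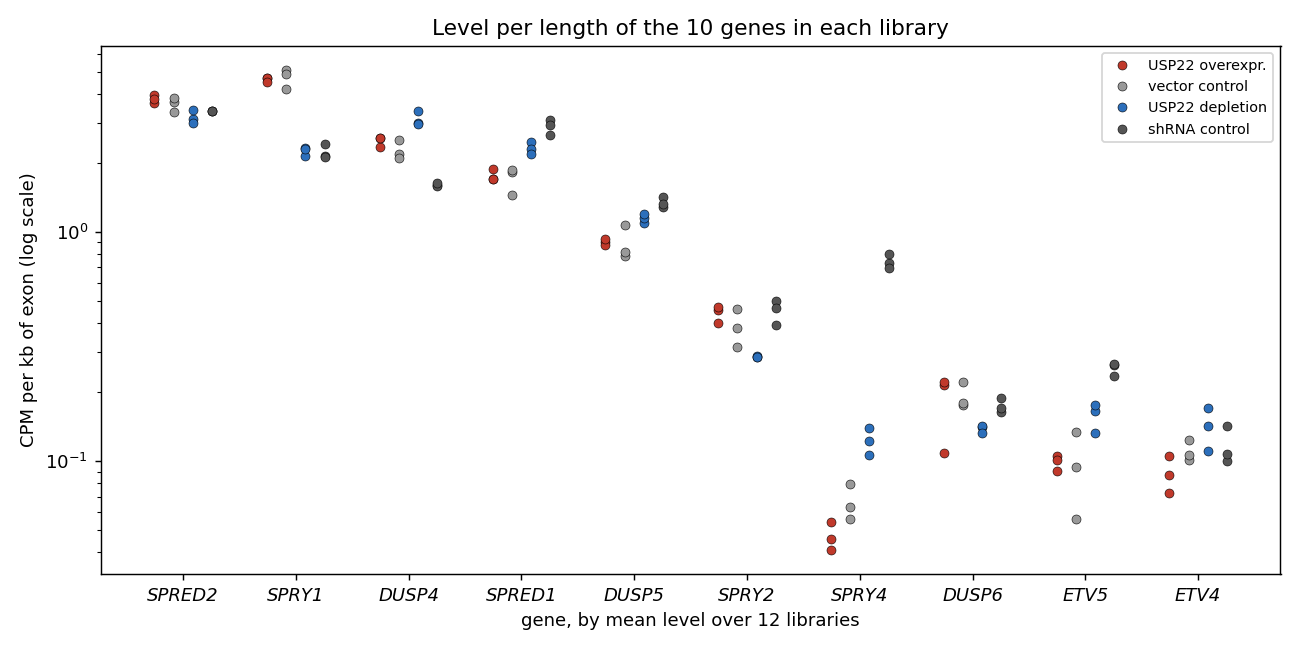
Level of each gene in each library, in CPM per kb of exon on a log axis, with genes ordered by their mean over 12 libraries; points are libraries, coloured by group. SPRED2 had similar levels in all groups, whereas the SPRY4 points ran from 0.0408 CPM per kb in an overexpression library to 0.803 CPM per kb in an shRNA control library.

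SPRY4 was the member that varied most between groups. Its group means spanned 3.9 log2 units, against 1.47 for ETV5, 1.08 for SPRY1, 0.95 for DUSP4, 0.76 for SPRED1, 0.64 for SPRY2 and ETV4, 0.6 for DUSP5, 0.45 for DUSP6 and 0.26 for SPRED2. The promoters of SPRY4, SPRED1 and SPRY2, which were all lower in depletion than in shRNA control libraries, and of SPRY1, which was not, are given here so that their ETS cores can be seen. RefSeq promoters (GRCh38.p14, 250 bases before to 50 after a start) were matched by symbol for 6 of the 10 genes. DUSP5, ETV4 and ETV5 had no match. Promoters on the chromosome that carries DUSP4 were left out of the matching, so DUSP4 could have none here. They were kept in the shares given for all promoters. Capitals mark GGAA, the core bound by ETS factors such as ETV4 and ETV5, on either strand (TTCC is its reverse complement); the AP-1 motif TGACTCA, searched on both strands too, is in none of those printed.

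SPRY4, chr5:142324198-142324497, minus strand: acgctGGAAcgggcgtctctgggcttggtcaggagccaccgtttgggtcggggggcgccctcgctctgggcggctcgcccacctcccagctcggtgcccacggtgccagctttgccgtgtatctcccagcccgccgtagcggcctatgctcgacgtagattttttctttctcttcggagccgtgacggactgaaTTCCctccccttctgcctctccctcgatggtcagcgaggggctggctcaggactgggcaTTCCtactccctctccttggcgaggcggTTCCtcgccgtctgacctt
SPRED1, chr15:38252586-38252885, plus strand: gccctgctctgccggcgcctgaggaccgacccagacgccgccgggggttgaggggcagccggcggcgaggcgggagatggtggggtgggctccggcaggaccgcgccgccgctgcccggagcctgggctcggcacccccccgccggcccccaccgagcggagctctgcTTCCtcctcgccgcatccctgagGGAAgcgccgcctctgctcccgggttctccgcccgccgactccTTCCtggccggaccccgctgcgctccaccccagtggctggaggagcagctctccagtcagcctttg
SPRY2, chr13:80341077-80341376, minus strand: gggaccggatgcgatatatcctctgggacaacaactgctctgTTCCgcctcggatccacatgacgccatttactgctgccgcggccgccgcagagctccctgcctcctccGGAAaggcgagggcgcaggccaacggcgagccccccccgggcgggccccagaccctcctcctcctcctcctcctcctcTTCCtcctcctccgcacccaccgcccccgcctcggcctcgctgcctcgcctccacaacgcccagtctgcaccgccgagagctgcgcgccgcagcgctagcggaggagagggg
SPRY1, first start, chr4:123396545-123396844, plus strand: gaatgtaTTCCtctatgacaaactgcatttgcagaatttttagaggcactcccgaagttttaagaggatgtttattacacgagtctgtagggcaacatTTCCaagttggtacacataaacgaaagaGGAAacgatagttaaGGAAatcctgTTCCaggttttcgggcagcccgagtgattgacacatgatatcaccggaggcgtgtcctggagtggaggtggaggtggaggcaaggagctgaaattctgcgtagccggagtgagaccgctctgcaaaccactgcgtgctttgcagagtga
SPRY1, second start, chr4:123398136-123398435, plus strand: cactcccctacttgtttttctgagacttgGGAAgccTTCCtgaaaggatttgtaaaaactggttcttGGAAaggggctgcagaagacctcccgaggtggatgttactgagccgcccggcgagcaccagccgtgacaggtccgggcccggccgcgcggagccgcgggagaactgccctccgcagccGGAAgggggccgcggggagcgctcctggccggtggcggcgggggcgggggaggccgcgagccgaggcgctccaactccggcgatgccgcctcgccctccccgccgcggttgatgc

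GGAA stood 4 times in the SPRY4 promoter, 3 times in that of SPRED1, 3 times in the SPRY2 promoter printed, and 5 and 4 times in those of SPRY1. SPRY2 has 3 promoters in the table, and the other 2 hold GGAA 5 and 4 times. Of genes that were not called on depletion, DUSP6 has it 6 times and SPRED2 5 and 6 times at its 2 starts. Most promoters hold it: 95.5% of 35116 promoters of this length had at least 1, with a median of 3. The longer core CCGGAA, searched on both strands and containing GGAA, was present once in the SPRY2 promoter printed, which was shown for it, and once at the second SPRY1 start; it was in none of the other 8 member promoters, the other 2 of SPRY2 included, against 17.2% of all promoters with at least 1. TGACTCA was in 1 of the 10 member promoters found, at a start of SPRED2, against 4.95% of all. Each match is one of letters only and not a shown binding site.

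USP22 overexpression was compared with the vector control to ask which transcripts follow raised USP22. None of the 10 genes was called (edgeR quasi-likelihood test, Benjamini-Hochberg adjusted p under 0.05 over all tested genes), where 4.11% of all tested genes were (1.51% higher, 2.6% lower). DESeq2 and limma voom called none either, and 1 gene, SPRY4, had an unadjusted edgeR p under 0.05. The median absolute log2 fold change was 0.08 for the 10 genes and 0.17 for all tested genes.

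SPRY4, an inhibitor of receptor-to-RAF signalling, stood at 0.356, 0.268 and 0.3 CPM in overexpression libraries against 0.368, 0.414 and 0.522 CPM in vector control libraries. It was the 1 member whose replicates did not overlap, which 22.4% of all tested genes met as well. With 22 to 37 reads per library the log2 fold change of -0.49 ± 0.21 (SE; adjusted p = 0.232 by edgeR) did not pass the test. SPRED2, an inhibitor of RAS activation, averaged 19.6 ± 0.877 CPM in overexpression and 18.7 ± 1.33 CPM in vector control libraries (SD, n = 3 each; log2 fold change 0.07, SE 0.07). SPRY1 averaged 18.4 ± 0.501 CPM in overexpression and 18.8 ± 1.86 CPM in vector control libraries (-0.03, SE 0.08), and SPRED1 14.6 ± 0.887 CPM in overexpression and 14.2 ± 1.91 CPM in vector control libraries (0.05, SE 0.10). All 3 had overlapping replicates. DUSP4, the nuclear phosphatase, had 18.7, 17.1 and 18.7 CPM in overexpression libraries against 15.9, 15.3 and 18.2 CPM in vector control libraries, a log2 fold change of 0.14 ± 0.08 (SE; adjusted p = 0.361 by edgeR). Without vector control replicate 3 the DUSP4 value was 0.22 (adjusted p = 0.0538 by edgeR), just over the threshold.

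The low-expressed members had wider errors. DUSP6, the cytoplasmic ERK phosphatase, had 0.499, 0.998 and 1.02 CPM in overexpression libraries against 0.813, 1.02 and 0.832 CPM in vector control libraries. Overexpression replicate 1 was thus below all the others and the remaining values overlapped. ETV4 had 0.261, 0.377 and 0.312 CPM in overexpression libraries against 0.445, 0.366 and 0.381 CPM in vector control libraries. ETV5 had 0.523, 0.608 and 0.587 CPM in overexpression libraries against 0.775, 0.548 and 0.324 CPM in vector control libraries. For both ETS genes the groups overlapped, and the vector control values of ETV5 were spread on both sides of all its overexpression values. The log2 fold changes of DUSP6, ETV4 and ETV5 were -0.09, -0.32 and 0.05 with SEs of 0.23, 0.27 and 0.25, so small changes in these genes were not detectable with errors of this size. DUSP5 averaged 2.36 ± 0.0746 CPM in overexpression and 2.33 ± 0.411 CPM in vector control libraries, and SPRY2 1.34 ± 0.114 CPM in overexpression and 1.17 ± 0.222 CPM in vector control libraries (SD, n = 3 each), with overlap in both. Their log2 fold changes were 0.02 (SE 0.13) for DUSP5 and 0.20 (SE 0.17) for SPRY2.

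**Figure D2:**
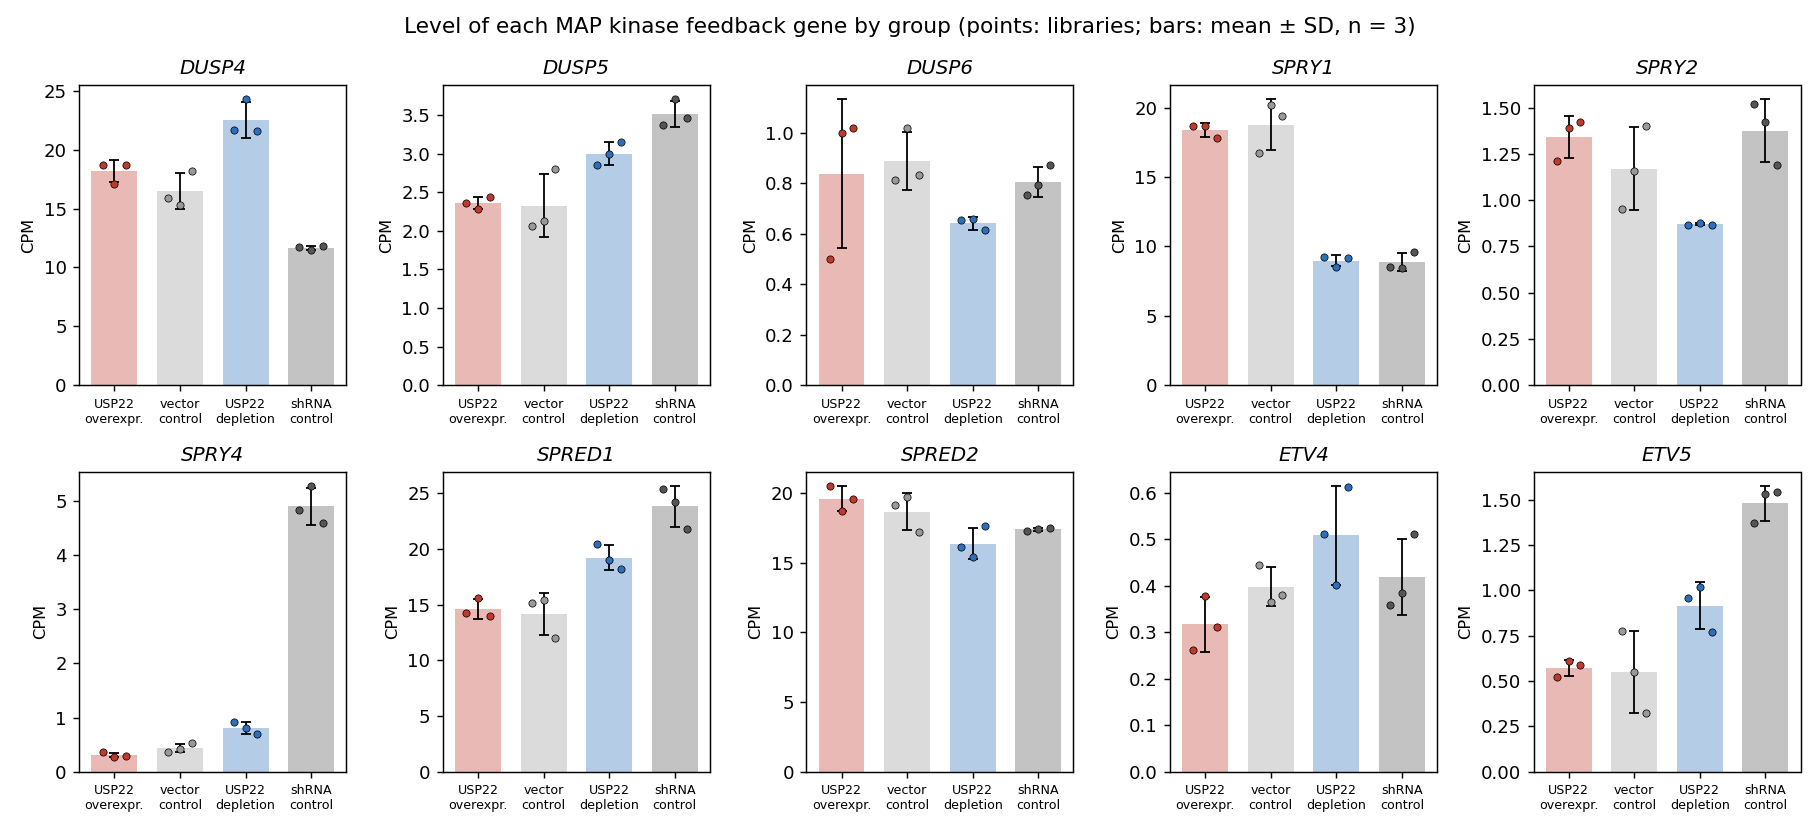
Level of each gene in CPM, with a linear axis from 0 for each panel; points are libraries and bars with whiskers are means and SD (n = 3). SPRY4 averaged 0.806 CPM after depletion and 4.9 CPM in the shRNA control, and DUSP4 averaged 22.5 CPM after depletion and 11.7 CPM in the shRNA control, while overexpression and vector control bars were close for most genes.

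USP22 depletion was compared with the shRNA control to ask which transcripts follow lowered USP22. Of the 10 genes 4 fell, SPRY2, SPRY4, SPRED1 and ETV5, and 1 rose, DUSP4 (edgeR adjusted p under 0.05). The share of all tested genes called was 19.8%, of which 9.4% were higher and 10.4% lower. With a minimum of 1 CPM in 3 libraries, 5 of 8 members and 5200 of 15897 genes were called. The median log2 fold change was -0.27 for the 10 genes and 0.0 for all tested genes. Replicates did not overlap for 7 of the 10 genes, 6 lower and 1 higher, against 41.8% of all tested genes. The markers moved in this comparison too (6 of 10 luminal markers were lower and 2 higher, 1 of 4 tested markers of other epithelial lines and 1 of 4 of fibroblasts were lower, and VWF was higher), and their part in the result was not tested. In bulk RNA, fewer cells that express a gene and less of its RNA per cell cannot be told apart.

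SPRY4 had the largest difference of the 10. It stood at 0.919, 0.803 and 0.697 CPM in depletion libraries against 4.83, 5.27 and 4.59 CPM in shRNA control libraries. Every depletion library was far below every control library, and the level was 0.165 of the control (log2 fold change -2.60 ± 0.15 SE; edgeR, adjusted p = 5.69e-09). Only 0.311% of tested genes had a larger absolute fold change in this comparison. SPRY2, its close relative, had 0.868, 0.875 and 0.865 CPM in depletion libraries against 1.52, 1.42 and 1.19 CPM in shRNA control libraries, without overlap, and fell to 0.632 of the control (log2 fold change -0.66 ± 0.17 SE; edgeR, adjusted p = 0.00951). This call ended without shRNA control replicate 1 (adjusted p = 0.0629).

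SPRY1, the third Sprouty gene, was not called. It had 9.2, 8.53 and 9.16 CPM in depletion libraries against 8.52, 8.44 and 9.61 CPM in shRNA control libraries, with overlapping replicates and a log2 fold change of 0.02 ± 0.08 (SE; adjusted p = 0.927 by edgeR). Of the 3 Sprouty genes it had the highest level per length in every group.

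The phosphatases differed in direction. DUSP4, which acts in the nucleus on ERK and on the stress kinases, had 21.7, 24.3 and 21.6 CPM in depletion libraries against 11.7, 11.5 and 11.8 CPM in shRNA control libraries. All depletion libraries were above all control libraries, and DUSP4 rose 1.93-fold (log2 fold change 0.95 ± 0.08 SE; edgeR, adjusted p = 4.96e-07). DUSP5, a nuclear phosphatase specific for ERK, had 2.86, 3 and 3.15 CPM in depletion libraries against 3.38, 3.71 and 3.47 CPM in shRNA control libraries. DUSP6 had 0.654, 0.659 and 0.613 CPM in depletion libraries against 0.754, 0.793 and 0.871 CPM in shRNA control libraries. Both had every depletion value below every control value, but neither passed the test: the log2 fold changes were -0.23 ± 0.12 (SE; adjusted p = 0.211 by edgeR) for DUSP5 and -0.33 ± 0.23 (SE; adjusted p = 0.381 by edgeR) for DUSP6.

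SPRED1 had 20.4, 19 and 18.2 CPM in depletion libraries against 25.4, 24.2 and 21.8 CPM in shRNA control libraries and fell to 0.806 of the control (log2 fold change -0.31 ± 0.09 SE; edgeR, adjusted p = 0.0274). No replicates overlapped, but the call was lost when any 1 of 5 libraries was left out, shRNA control replicate 1 or 2 or any of the 3 depletion replicates, with adjusted p between 0.0629 and 0.187. SPRED2 had 16.1, 15.4 and 17.6 CPM in depletion libraries against 17.3, 17.4 and 17.5 CPM in shRNA control libraries, with overlap and a log2 fold change of -0.09 ± 0.07 (SE; adjusted p = 0.47 by edgeR).

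ETV5 had 0.96, 1.02 and 0.769 CPM in depletion libraries against 1.37, 1.53 and 1.54 CPM in shRNA control libraries, without overlap. It fell to 0.623 of the control (log2 fold change -0.68 ± 0.21 SE; edgeR, adjusted p = 0.034), a call that was lost without any 1 of the 6 libraries compared (adjusted p between 0.0645 and 0.145). ETV4, the related factor, had 0.511, 0.401 and 0.613 CPM in depletion libraries against 0.359, 0.385 and 0.512 CPM in shRNA control libraries. These values overlapped, and the log2 fold change was 0.27 ± 0.24 (SE; adjusted p = 0.502 by edgeR). ETV4 overlaps exons of DHX8 on the opposite strand in GENCODE 29; DHX8 had 94591 reads over the 12 libraries, and since the sources used here do not give the strand setting of the counting, the ETV4 counts are uncertain. Exons of ETV5 overlap those of DGKG on the same strand (198 reads over the 12 libraries), and those of DUSP6 overlap an antisense transcript, so the DUSP6 counts carry the same doubt.

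**Figure D3:**
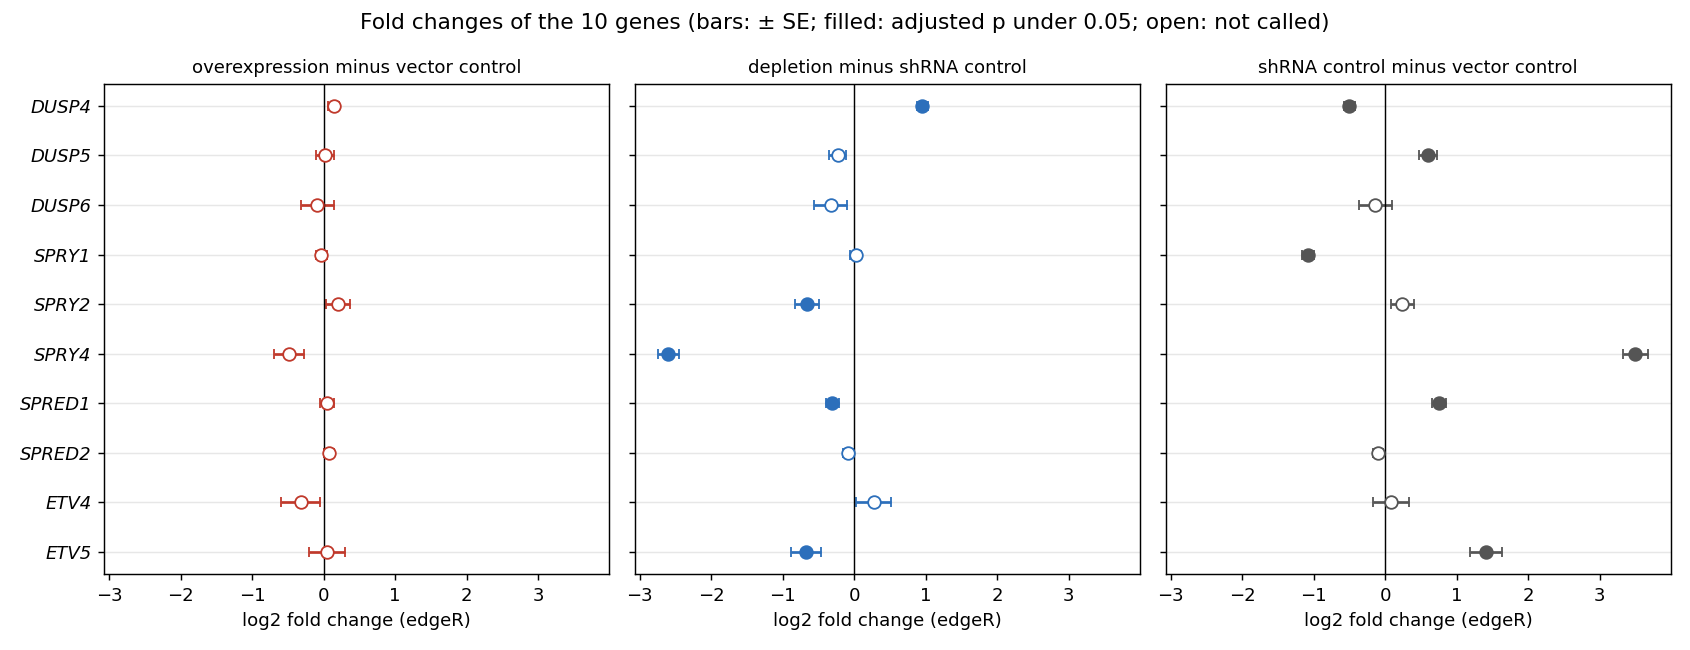
Log2 fold change of each gene in the 3 comparisons (edgeR); whiskers are SE, filled points passed an adjusted p of 0.05 and open points did not. SPRY4 lies at -2.60 in depletion minus shRNA control and at 3.50 in shRNA control minus vector control, and these comparisons share the shRNA control libraries.

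The 2 controls were also compared; this comparison shares the shRNA control libraries with the depletion one, on opposite sides, so a value high in them enters both. The shRNA control differed from the vector control in 6 of the 10 genes, 4 higher (DUSP5, SPRY4, SPRED1 and ETV5) and 2 lower (DUSP4 and SPRY1), and 43.0% of all tested genes were called in this comparison, 21.7% higher and 21.3% lower. The same 6 genes had replicates that did not overlap, against 49.8% of all tested genes. With a minimum of 1 CPM in 3 libraries, 6 of 8 members and 9635 of 15897 genes were called. The median absolute log2 fold change was 0.55 for the 10 genes and 0.36 for all tested genes. The markers moved here as well: 6 of 10 luminal markers were higher and 3 lower, 2 of 4 tested markers of other epithelial lines were higher, 1 of 4 tested fibroblast markers was higher and 1 lower, 1 of 2 tested leukocyte markers was lower, and VWF was lower. Their part in the result was not tested.

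SPRY4 was 11.3-fold higher in the shRNA control, with 4.83, 5.27 and 4.59 CPM, than in the vector control, with 0.368, 0.414 and 0.522 CPM (log2 fold change 3.50 ± 0.17 SE; edgeR, adjusted p = 2.05e-10). Depletion libraries, at 0.697 to 0.919 CPM, lay between the 2 controls and overlapped neither. SPRED1 and DUSP5 had the same order of groups. SPRED1 had 18.2 to 20.4 CPM in depletion libraries, 21.8 to 25.4 CPM in shRNA control libraries and 12 to 15.4 CPM in vector control libraries. DUSP5 had 2.86 to 3.15 CPM in depletion libraries, 3.38 to 3.71 CPM in shRNA control libraries and 2.06 to 2.8 CPM in vector control libraries. For both genes the depletion values lay above the vector control and below the shRNA control, with no overlap. ETV5 averaged 0.916 ± 0.13 CPM in depletion libraries, 1.48 ± 0.0967 CPM in shRNA control libraries and 0.549 ± 0.225 CPM in vector control libraries (SD, n = 3 each), where the depletion and vector control values overlapped. The log2 fold changes of SPRED1, DUSP5 and ETV5 between shRNA and vector control were 0.75, 0.60 and 1.41, with edgeR adjusted p of 8.55e-06, 0.000845 and 0.000105.

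DUSP4 and SPRY1 were lower in the shRNA control. DUSP4 had 11.7, 11.5 and 11.8 CPM there against 15.9, 15.3 and 18.2 CPM in the vector control (log2 fold change -0.50 ± 0.08 SE; edgeR, adjusted p = 9.88e-05), and the depletion libraries, at 21.6 to 24.3 CPM, were above both controls. SPRY1 had 8.52, 8.44 and 9.61 CPM in the shRNA control against 16.7, 20.2 and 19.4 CPM in the vector control (log2 fold change -1.08 ± 0.08 SE; edgeR, adjusted p = 3.86e-08). Its depletion level was close to that of the shRNA control, and its overexpression level, 17.8 to 18.7 CPM, fell within the vector control values, so SPRY1 separated the doxycycline-treated shRNA groups from the other groups and not the USP22 levels within either pair. DUSP6, SPRY2, SPRED2 and ETV4 were not called, with log2 fold changes of -0.14, 0.24, -0.10 and 0.08.

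Whether the response to depletion differed from that to overexpression was tested by the difference of the 2 log2 fold changes, overexpression minus depletion. It was called for 3 of the 10 genes, against 10.9% of all tested genes: SPRY4 (2.11, SE 0.26, edgeR adjusted p = 8.93e-05), DUSP4 (-0.81, SE 0.11, edgeR adjusted p = 0.000258) and SPRY2 (0.86, SE 0.24, edgeR adjusted p = 0.0262). The 2 changes start from controls that differed in construct and in doxycycline. SPRY4 averaged 4.9 CPM in shRNA control but 0.435 CPM in vector control libraries, where it had 29 to 37 reads. Unlike responses to USP22 and unlike starting levels therefore cannot be told apart here. The SPRY2 call was lost in 7 of the 12 fits that left out 1 library (adjusted p up to 0.0791): those without vector control replicate 1 (0.0624), overexpression replicate 2 (0.0654) or 3 (0.0678), shRNA control replicate 1 (0.0791) or 2 (0.0575), or depletion replicate 1 (0.0596) or 2 (0.0518). For ETV5 (0.73, edgeR adjusted p = 0.185) and SPRED1 (0.36, edgeR adjusted p = 0.108) the 2 responses were not shown to differ, although both genes were called in depletion alone. The ETV5 difference passed without vector control replicate 1 (1.06, adjusted p = 0.0413), and that of SPRED1 with the replicate number as a block (0.36, adjusted p = 0.043).

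The rest of the pathway was counted in lists that do not contain the 10 genes. Of 9 other MAP kinase phosphatases tested, 7 fell and 1 rose on depletion, against 10.4% lower and 9.4% higher among all tested genes, and the median log2 fold change was -0.28 against 0.0. All tested genes include many at low levels. In a fit that required 1 CPM in 3 libraries, 2511 of 15897 genes were lower and 2689 higher on depletion. DUSP2, a nuclear phosphatase induced by mitogens, averaged 20.5 ± 1.66 CPM in depletion libraries and 57.3 ± 1.2 CPM in shRNA control libraries (0.358 of the control, edgeR adjusted p = 1.5e-07), and DUSP8, which acts on stress kinases, fell to 0.66 of the control (edgeR adjusted p = 0.00096). In vector control libraries DUSP2 averaged 26.4 ± 5.54 CPM, and the shRNA control was 2.17-fold higher (edgeR adjusted p = 6e-07). Between the controls DUSP8 was not called (1.1-fold). DUSP4 and the related DUSP9 (1.31-fold, named after its value was seen) were the phosphatases of either list that rose. On overexpression none of the 9 was called by edgeR, against 4.11% of all tested genes.

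The shares of all tested genes to set beside the lists that follow are 10.4% lower and 9.4% higher on depletion, and 2.6% lower and 1.51% higher on overexpression. With the minimum of 1 CPM in 3 libraries, 2511 of 15897 genes were lower and 2689 higher on depletion. On overexpression 678 of these were lower and 525 higher. Of 12 tested genes of growth factor families, most of them ligands that act upstream of RAS, 5 fell and none rose on depletion (median -0.37), and 3 fell and none rose on overexpression (median -0.1, against -0.01 for all tested genes). Besides those given next, the genes of this list that fell were EGF in both comparisons (0.781 of the control on depletion, 0.843 on overexpression) and NRG3 on depletion (0.317), picked after their values were seen. HBEGF, an EGF receptor ligand, averaged 6.22 ± 0.418 CPM in depletion libraries and 9.26 ± 0.76 CPM in shRNA control libraries (edgeR adjusted p = 0.000369), and 3.88 ± 0.26 CPM in overexpression and 5.11 ± 0.351 CPM in vector control libraries (edgeR adjusted p = 0.0333). TGFA, another such ligand, fell to 0.764 of the control on depletion (edgeR adjusted p = 0.0138) and to 0.706 on overexpression (0.0146). TGFA averaged 8.33 CPM in depletion, 10.9 CPM in shRNA control and 6.65 CPM in vector control libraries. FGF13 fell to 0.62 on depletion (edgeR adjusted p = 0.000219); it belongs to the FGF family by sequence but acts inside the cell and is not a receptor ligand. FGF13 averaged 4.23 CPM in depletion, 6.82 CPM in shRNA control and 6.61 CPM in vector control libraries. Of 17 receptors 5 fell and 1 rose on depletion (median -0.18) and 2 fell on overexpression (median -0.09); the riser was ERBB4 (1.57-fold) and those that fell beside IGF1R and FGFR3 were EGFR, FGFR1 and DDR1, picked after their values were seen. IGF1R, the IGF1 receptor, averaged 41.2 ± 2.25 CPM in depletion libraries and 104 ± 3.43 CPM in shRNA control libraries (edgeR adjusted p = 1.48e-09), and 32.5 ± 2.01 CPM in overexpression and 62.1 ± 3.73 CPM in vector control libraries (edgeR adjusted p = 3.48e-07). FGFR3, a fibroblast growth factor receptor, fell to 0.328 of the control on depletion (edgeR adjusted p = 2.38e-07) and to 0.528 on overexpression (0.000737). FGFR3 averaged 4.3 CPM in depletion, 13.1 CPM in shRNA control and 4.95 CPM in vector control libraries.

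Of 27 cascade genes from adaptors to ERK and its substrates 6 fell and none rose on depletion (median -0.08), against 10.4% lower among all tested genes, and 1 rose and 1 fell on overexpression (median -0.03), close to the share of all tested genes (4.11% in either direction). RRAS, a RAS-related GTPase, fell to 0.763 of the control (edgeR adjusted p = 0.00451) and BRAF, a RAF kinase, to 0.812 (0.00721) on depletion, and the scaffold KSR2 rose 1.26-fold on overexpression (edgeR adjusted p = 0.0438). RRAS averaged 16.0 CPM in depletion, 21.0 CPM in shRNA control and 7.3 CPM in vector control libraries. BRAF averaged 76.3 CPM in depletion, 94.0 CPM in shRNA control and 70.5 CPM in vector control libraries. Of 18 other brakes on receptor and RAS signalling 5 fell and 1 rose on depletion (median -0.11) and 1 fell on overexpression (median 0.07), the overexpression count again near the share of all tested genes; NF1, ERRFI1 and PEA15 (lower) and LRIG1 (higher) were among those called on depletion, and were picked after their values were seen. SPSB1, an adaptor of a ubiquitin ligase, fell to 0.566 of the control on depletion (edgeR adjusted p = 1.36e-05) and to 0.677 on overexpression (0.00369). SPSB1 averaged 5.62 CPM in depletion, 9.92 CPM in shRNA control and 5.23 CPM in vector control libraries. Of 14 tested genes often read as ERK output, 3 fell and 2 rose on depletion, with a median of 0.01, and 2 fell and 1 rose, PHLDA1 (1.33-fold, picked after its value was seen), on overexpression, with a median of -0.27. The 2 that rose on depletion were MYC and ETV1, a gene known to be rearranged and overexpressed in LNCaP. FOS, an AP-1 subunit, averaged 4.67 ± 0.832 CPM in depletion and 13.7 ± 2.6 CPM in shRNA control libraries (edgeR adjusted p = 0.000366), and fell to 0.352 of the control on overexpression (edgeR adjusted p = 0.00429). In vector control libraries FOS averaged 6.65 ± 2.59 CPM. MYC rose 1.61-fold on depletion (edgeR adjusted p = 1.78e-06), to 157.4 CPM from 98.0 CPM in shRNA control libraries. Both levels were below the 305.9 CPM of the vector control. Between the shRNA control and the vector control, 12 of the 18 other brakes were higher in the shRNA control and 2 lower, 14 of the 27 cascade genes were higher and 5 lower, and 9 of the 17 receptors were higher and 1 lower. Of the 12 growth factor genes 5 were higher and 1 lower, of the 9 phosphatases 4 were higher and 2 lower, and of the 14 ERK output genes 4 were higher and 4 lower. Of all tested genes 21.7% were higher and 21.3% lower. With the minimum of 1 CPM in 3 libraries, 4919 of 15897 genes were higher and 4716 lower.

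**Figure D4:**
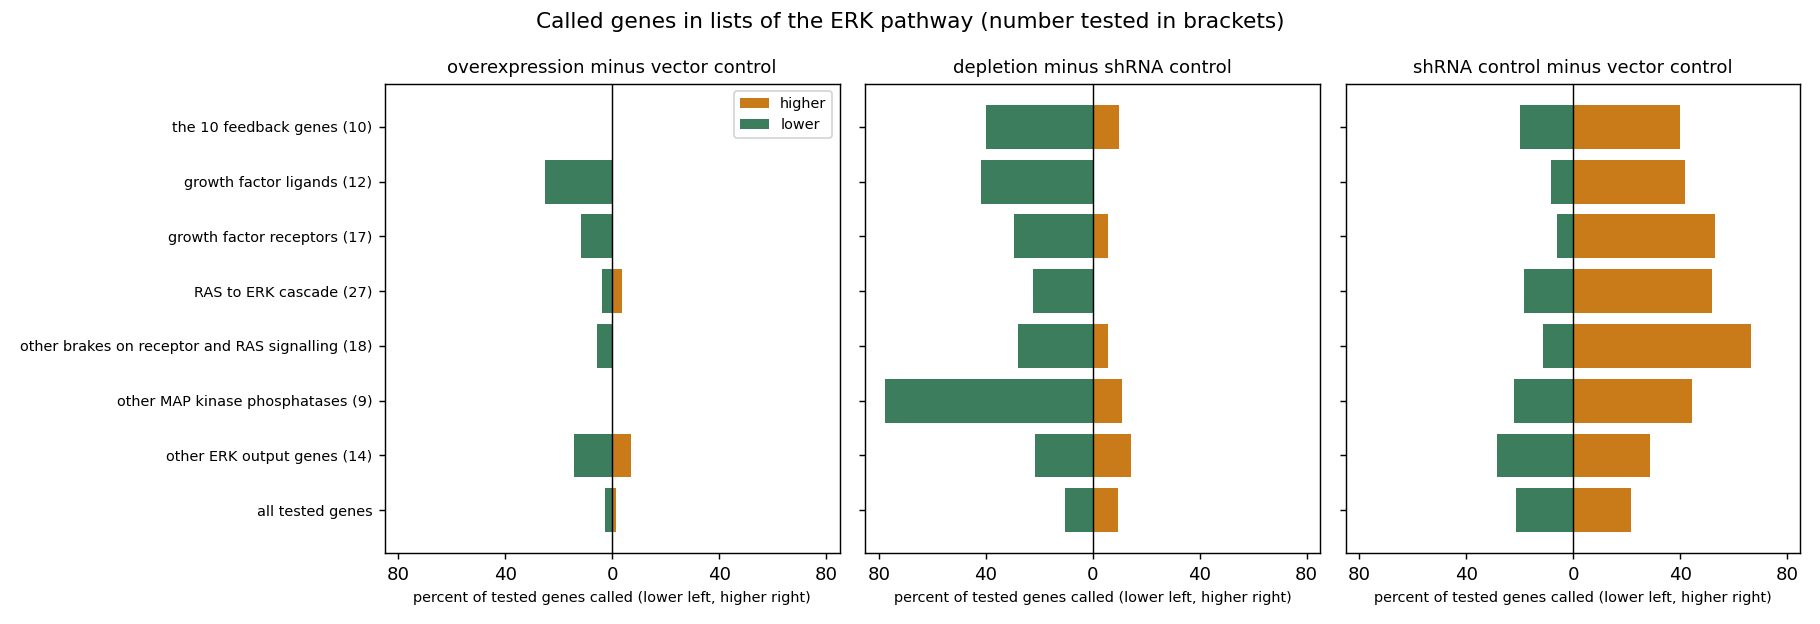
Percent of tested genes called lower (left) and higher (right) in each list of ERK pathway genes, in the 10 feedback genes and in all tested genes, for the 3 comparisons (edgeR adjusted p under 0.05). On depletion 4 of the 10 feedback genes and 7 of 9 other phosphatases were lower, against 10.4% of all tested genes.

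Over the 12 libraries, which share groups, the log2 CPM of SPRY4 was most alike that of CDYL2 (Pearson r = 0.998), TBC1D8 (0.995) and PMEPA1 (0.992) among 11033 named genes whose average reached 5 CPM. PMEPA1 averaged 54.4 CPM in overexpression, 63.8 CPM in vector control, 71.5 CPM in depletion and 139.3 CPM in shRNA control libraries, a narrower range than that of SPRY4. For ETV5 the most alike were TXNDC16 (0.987), STON1 (0.978) and TOGARAM1 (0.976), and for SPRY1, which split the shRNA from the other groups, MEX3A (0.994), FARP2 (0.992) and NETO1 (0.989). These values are descriptions, since 4 group means set most of each profile.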

How the data were processed

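The authors deposited 1 table of raw read counts per Ensembl gene ID, with 1 column per library. The submitters' processing notes name hg19, featureCounts 1.5.0-p3, STAR 2.5.2a and DESeq2 1.14.1. Not given in the sources used here are the annotation release, the strand setting and how reads with several matches were counted. Columns were matched to samples by title; those of the overexpression group carry a shorter form of it. The members and lists were chosen with earlier results of these data known.

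Counts were filtered by filterByExpr (26076 genes kept), scaled by TMM and fitted in edgeR 4.0.16 (R 4.3.3) with all 4 groups (glmQLFit, 8 residual degrees of freedom; glmQLFTest; Benjamini-Hochberg over all tested genes; threshold 0.05). Fold changes and SEs are log2. Exon length is the union of exons in GENCODE 29, matched by ID; RefSeq promoters are of GRCh38.p14. Depth sets the counting error: 77607469 to 103690001 reads per library. The fit was tested on simulated data. No 2 replicates looked like 1 library deposited again: the lowest chi-square over its degrees of freedom was 7.2.

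Named list genes were the 2 called genes with the largest absolute fold change per list in each of the depletion and overexpression comparisons, with a mean of at least 5 CPM, of which 2 are not reported here; the most alike genes were the top 3 by Pearson r for the 3 members with the widest range. Of the list entries DUSP14 was not matched. Alternatives were RLE scaling, other filters, DESeq2 1.42.0, limma 3.58.1 voom, a replicate block, a fit of only the libraries compared, and leaving out each library; the depletion comparison without vector control replicate 3 was added after seeing the data.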

Additional observations from a re-analysis of the deposited data

How the results depend on the processing

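RLE scaling, DESeq2, limma voom, an unfiltered table, a minimum of 1 CPM in 3 libraries and only the libraries compared left the number of called members as it was in each comparison they were run for (0 on overexpression, 5 on depletion, 6 between controls, 3 for the difference); only the libraries compared was not run for the difference, and the minimum of 1 CPM removed DUSP6 and ETV4. With this minimum the SPRY1 overexpression value was 0.00. Leaving out 1 library gave 0 called members on overexpression, 2 to 5 on depletion, 6 to 7 between controls (SPRED2 passed without vector control replicate 3) and 2 to 3 for the difference. On depletion it was 2 without shRNA control replicate 1, and 3 without shRNA control replicate 2 or any depletion replicate. Uncalled log2 values changed sign in such fits for DUSP5 (-0.06 to 0.17), DUSP6 (-0.25 to 0.18), SPRY1 (-0.11 to 0.03), SPRED1 (-0.06 to 0.11) and ETV5 (-0.21 to 0.38) on overexpression, ETV4 between controls (-0.09 to 0.18) and SPRY1 for the difference (-0.13 to 0.01). Genes called on overexpression, 1072, numbered 2062 with no filter, 1786 by DESeq2, 327 with only the libraries compared and 501 to 1842 when 1 library was left out, the highest without vector control replicate 3 and the lower values without overexpression replicates 2 (501), 1 (539) and 3 (630). Those on depletion, 5172, numbered 8115 with only the libraries compared and 3523 to 8359 with 1 left out, the highest without vector control replicate 3; for the difference, 2840, they numbered 1909 to 5320, the highest again without that library. The cause was not tested. Between controls they numbered 9514 to 12344.

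Same-numbered libraries did not deviate together from their group means (correlations of -0.022 to 0.0827), and not every library correlated best with its own number. With a replicate block 1098, 5272, 11308 and 2959 genes and 0, 5, 6 and 4 members were called on overexpression, on depletion, between controls and for the difference. DUSP6, ETV4, ETV5, SPRY2 and SPRY4 had under 100 reads in some libraries, which limits their precision.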

Other observations

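Among the PEA3 group, the gene at a high level in these cells was not a member. ETV1, which is known to be rearranged and overexpressed in LNCaP, stood at 35.5 ± 1.74 CPM per kb of exon in depletion libraries and 28.2 ± 1.38 in shRNA control libraries, and at 25.6 ± 0.944 in overexpression and 21.6 ± 2.8 in vector control libraries (SD, n = 3 each), where ETV4 and ETV5 stayed below 0.3 CPM per kb in every library. ETV1 rose 1.26-fold on depletion (edgeR adjusted p = 0.00691), while ETV5 fell and ETV4 was not called. ETV1 was singled out after its values were seen.

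EPHA2, a receptor kinase gene often read as ERK output and also picked after its values were seen, averaged 0.991 ± 0.227 CPM in depletion and 3.99 ± 0.217 CPM in shRNA control libraries (0.247 of the control, edgeR adjusted p = 8.25e-08), and 3.79 ± 0.0237 CPM in overexpression and 6.41 ± 0.856 CPM in vector control libraries (0.591, edgeR adjusted p = 0.00253). EGR1, an immediate early gene picked in the same way, averaged 0.905 ± 0.322 CPM in depletion and 2.28 ± 0.331 CPM in shRNA control libraries, and 0.278 ± 0.0928 CPM in overexpression and 0.187 ± 0.0345 CPM in vector control libraries. EGR1 was thus highest in the shRNA control, lower after depletion and lowest in the vector control, the order that SPRY4 had for these 3 groups. Of the same list, EGR2, EGR3, IER2 and IER3 were not called on depletion, while FOS fell.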
